A study of Mus musculus with 2 samples.

Results

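The members described here were the variable (V) segment features of the 3 immunoglobulin loci, the symbols that start with Ighv, Igkv or Iglv, that had 5 or more unique molecular identifiers (UMIs, each standing for 1 captured RNA molecule) over both libraries. Of 348 such features among the 31053 features of the table, 112 passed, namely 60 of 185 Ighv, 49 of 160 Igkv and 3 of 3 Iglv features. At the edge of the rule, 7 features had exactly 5 UMIs, none had exactly 4 UMIs, 28 had 1 to 4 UMIs and 208 had 0 UMIs. Droplet single-cell RNA sequencing was performed on mouse colon lamina propria cells from 2 genotypes, wild-type (WT) and LncRNA17Rik knockout (KO), with 1 library each and each made from pooled adult male mice on a C57BL/6 background. No feature carries the symbol LncRNA17Rik, so the deletion itself could not be checked in the counts. The WT library is titled WTGFC, and what the added letters mean is not given in the labels. The study names the deleted RNA lncLy6c. The labels give no treatment and call the cells cd11b+, the myeloid surface protein encoded by Itgam. With 1 library per genotype there was no test between genotypes, and every interval below is a 95% interval that covers counting error only.

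An antibody is built from paired heavy and light chains. In each developing B cell a heavy chain gene is put together from a V, a D and a J segment, and a light chain gene from a V and a J segment of either the kappa or the lambda locus, so that a mature B cell and the plasma cell that descends from it usually use 1 heavy and 1 light V segment. Plasma cells of the gut lamina propria secrete mainly IgA, which is carried across the epithelium into the gut lumen. The V segment forms the end of the mRNA that lies far from the poly(A) tail, whereas a 3′ library reads near the tail, so V segments give few UMIs beside the constant genes.

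The reference sequences around the conserved cysteine codon, where the V segment enters the third complementarity-determining region, are shown for the segments on which the results turn. They are coding sequence of the second exon of each segment in GENCODE M21 (build mm10), read 5′ to 3′ on the strand of the gene, and the capitals mark the cysteine codon. The first 3 were the heavy segments used by most WT plasma cell-like cells.
Ighv1-81: tctgcggtctatttcTGTgcaaga (chr12:115920279-115920302, minus strand)
Ighv1-9: tctgccatctattacTGTgcaaga (chr12:114583569-114583592, minus strand)
Ighv1-26: tctgcagtctattacTGTgcaaga (chr12:114788372-114788395, minus strand)

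The kappa segments shown next were those used by most WT plasma cell-like cells, with Igkv8-21 added for its pairing with Ighv1-9.
Igkv1-110: ctgggagtttatttcTGCtctcaaagtaca (chr6:68271227-68271256, plus strand)
Igkv1-117: ctgggagtttattacTGCtttcaaggttca (chr6:68121787-68121816, plus strand)
Igkv10-96: attgccacttactttTGCcaacagggtaat (chr6:68631974-68632003, minus strand)
Igkv8-21: ctggcagtttattacTGCaagcaatcttat (chr6:70314903-70314932, minus strand)

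All 3 lambda segments are shown because they behaved unlike each other in single cells.
Iglv1: gaggcaatatatttcTGTgctctatggtac (chr16:19085029-19085058, minus strand)
Iglv2: gatgcaatgtatttcTGTgctctatggtac (chr16:19260413-19260442, minus strand)
Iglv3: gaagcaatatacatcTGTggtgtgggtgat (chr16:19241232-19241261, minus strand)

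The last 4 led the usage of the KO plasma cell-like cells.
Ighv3-6: acagccacatattacTGTgcaagaga (chr12:114288152-114288177, minus strand)
Ighv7-1: actgccatttattacTGTgcaagagatgca (chr12:113896408-113896437, minus strand)
Igkv17-127: gttgcagattactacTGTttgcaaagtgat (chr6:67861619-67861648, plus strand)
Igkv19-93: attgcaacttattatTGTctacagtatgat (chr6:68736308-68736337, minus strand)

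Iglv1 and Iglv2 shared 28 of these 30 bases, and Igkv1-117 and Igkv1-110 shared 26 of 30. Over whole transcripts, 62.6% of the 31-base words of Igkv1-117 also occurred in Igkv1-110, and 36.8% of those of Iglv1 occurred in Iglv2. Among the 112 members, 45 had over 50% of their words in another V feature and 4 had none. Whether reads in such stretches could be given to 1 segment was not tested. No word of Iglv1 or Iglv3 occurred in an Igkv feature.

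The filter left 2597 WT cells with 18994564 UMIs and a median of 5073 UMIs per cell, and 2514 KO cells with 22331342 UMIs and a median of 6564.5. B and plasma cells were taken from clusters built without any immunoglobulin feature. B cell-like cells, with 12 of 12 fixed markers raised, numbered 206 in WT and 85 in KO. Plasma cell-like cells, with 10 of 12 markers raised, numbered 231 in WT (8.89% of cells, 7.83 to 10.1) and 5 in KO (0.199%, 0.0646 to 0.464). They formed 2 clusters, 1 of which, with 46 WT cells and 1 KO cell, was led by Hist1h2ap, a histone gene of dividing cells. Itgam, which the sort label names, had a UMI in 66 of the 231 WT plasma cell-like cells at 41.8 CPM (counts per 1000000 UMIs), against 267 CPM in WT macrophage or monocyte-like cells. The 2 libraries shared 1 barcode sequence.

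V segment UMIs came almost wholly from plasma cell-like cells. These cells held 6434 of the members' UMIs in WT, 98.0% of all those in filtered cells, and 305 in KO, 93.8%. In these cells the WT level was 1591 CPM and the KO level 2131 CPM, which gives a KO to WT ratio of 0.42 on the log2 scale (0.25 to 0.59). By locus, Ighv segments stood at 517 CPM in WT and 839 in KO, Igkv segments at 779 and 1146, and Iglv segments at 294 and 147. The log2 ratios were 0.70 (0.42 to 0.96) for Ighv, 0.56 (0.32 to 0.78) for Igkv and -1.0 (-1.70 to -0.38) for Iglv. The KO values rest on 5 cells, and the direction of the summed level, of Ighv and of Igkv did not hold in every setting. Without the KO and the WT cell that held the most V UMIs, the WT level was 1544 CPM and the KO level 1279 CPM, a log2 ratio of -0.27, with -0.078 for Ighv and -0.16 for Igkv. With plasma cells taken by marker UMIs, which takes 40 KO cells in place of 5, the levels were 1488 and 558 CPM, a log2 ratio of -1.42, with -1.14 for Ighv and -1.28 for Igkv. Without the top 3% of Scrublet doublet scores, which leaves 1 KO cell, Igkv stood at -0.46. Iglv was lower in KO in each of these settings, but all 5 KO cells were kappa cells by their constant gene and 17 WT cells were lambda cells. Within kappa cells the WT level of Iglv1 was 190 CPM (177 to 205) and its KO level 147 CPM (90.8 to 224), with overlapping intervals.

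Over all filtered cells the members were lower in KO, beside the unequal numbers of plasma cell-like cells given above. The WT members summed to 346 CPM and the KO members to 14.6 CPM, and the log2 ratio was -4.57 (-4.74 to -4.41). Fewer cells of a class and less RNA per cell cannot be told apart in such a sum. Counted member by member with 1 CPM added to both sides, 55 of the 111 members with 5 or more UMIs in filtered cells were lower in KO by 2-fold or more, against 11.4% of all features with as many UMIs. In the higher direction it was 1 of 111, against 2.29% of all features. The median log2 ratio was -0.97 over these members and -0.21 over all features.

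B cell-like cells carried few V UMIs. There were 22 UMIs from 19 members in the 206 WT cells, 25.5 CPM (16.0 to 38.5), and 17 UMIs from 17 members in the 85 KO cells, 43.2 CPM (25.1 to 69.1). The log2 KO to WT ratio of 0.76 had an interval of -0.24 to 1.74, which includes 0, and with B cells taken by marker UMIs it was -0.73. A V UMI was found in 20 WT cells (9.71%) and in 14 KO cells (16.5%). No B cell-like cell had more than 2 V UMIs. With B cells taken by marker UMIs there were 58 V UMIs in 189 WT cells, 70 CPM, and 2 of these cells had 3 or more. Ighv1-53, Ighv1-80 and Igkv12-46 had 2 UMIs each in the WT cells, and Ighv1-15, Ighv1-72, Ighv1-74, Igkv1-117, Igkv14-111, Igkv17-121 and Igkv4-57-1 were among those with 1. In the KO cells Ighv1-22, Ighv1-26, Ighv1-69, Ighv1-72, Ighv1-81, Igkv1-135, Igkv10-94, Igkv12-89, Igkv19-93 and Igkv5-43 were among the members with 1 UMI each.

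These shares depend on depth. The median depth was 3043.5 UMIs in WT B cell-like cells, 17793 in WT plasma cell-like cells and 4872.5 in the remaining WT cells. With each cell thinned to 2000 UMIs, which left out 31 B cell-like, 12 plasma cell-like and 588 other WT cells, the expected share of cells with a V UMI was 5.94%, 81.9% and 0.636%. Unthinned, it was 9.71%, 94.4% and 1.44%. In KO the thinned shares were 7.93% of B cell-like cells and 0.0324% of the cells outside both classes. B cell-like cells therefore lay above the level of cells that should lack these transcripts, in both libraries, and far below plasma cell-like cells.

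**Figure D1:**
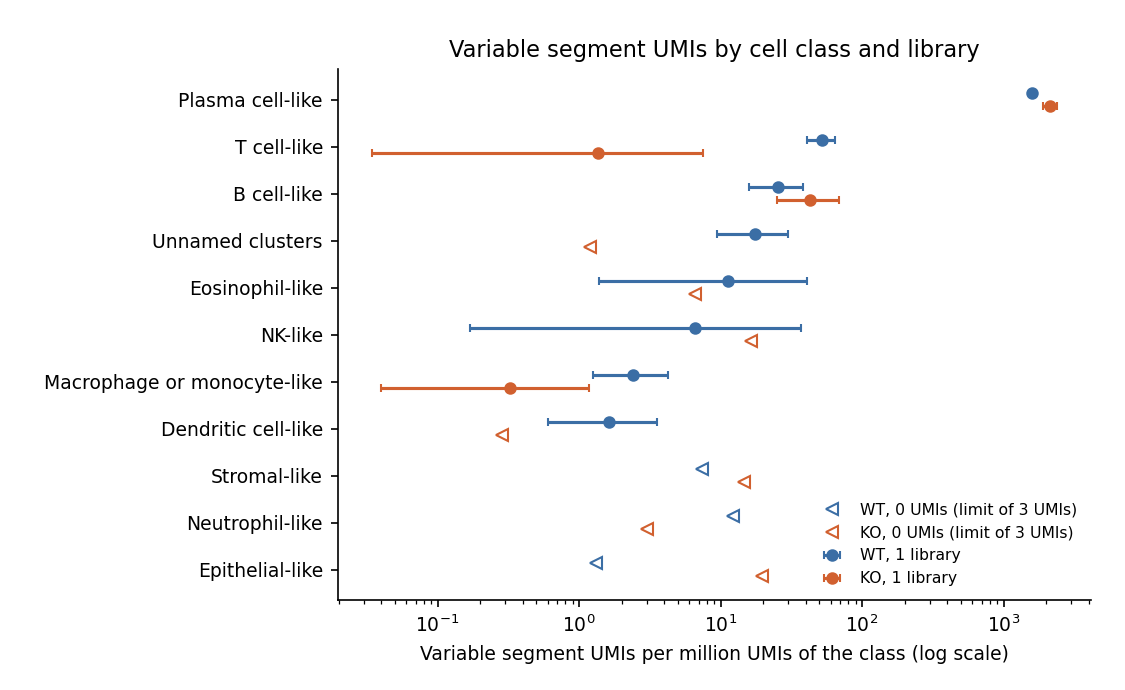
V segment level in CPM of each cell class (log axis) in the WT and KO library, with exact Poisson 95% intervals; open triangles mark classes with 0 UMIs at the limit of 3 UMIs. The WT and KO plasma cell-like cells stand highest, at 1591 and 2131, B cell-like cells at 25.5 and 43.2, and WT T cell-like cells at 51.9, where 1 barcode with 43 and 1 with 30 V UMIs hold most of the 77 UMIs.

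Set against the constant genes, the Ighv and Igkv segments of WT cells were of the same order in B cell-like, plasma cell-like and other cells, and the Iglv segments were not. WT B cell-like cells had 4.0 Ighv UMIs per 1000 heavy constant UMIs (13 against 3249), and WT plasma cell-like cells had 3.37 (2091 against 620287). For the kappa chain there were 2.78 Igkv UMIs per 1000 Igkc UMIs in WT B cell-like cells and 4.27 in WT plasma cell-like cells. In the 2160 WT cells outside both classes these ratios were 2.24 (50 against 22306) and 2.24 (54 against 24104), and in the 2424 KO cells outside both they were 1.27 (2 against 1576) and 2.76 (1 against 362). For Iglv segments against Iglc1 to Iglc3 the ratio was 1.87 in WT B cell-like cells (1 against 536), 17.1 in WT plasma cell-like cells (1190 against 69626) and 6.72 in other WT cells (7 against 1042). Within WT plasma cell-like cells it was 64.0 where Igkc led the light constant genes and 6.59 where a lambda constant gene did. The constant level also differed. Igkc, the kappa constant gene, stood at 3332 CPM in WT B cell-like cells and at 182443 CPM in WT plasma cell-like cells.

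The constant genes gave the class of antibody. Igha, the heavy constant gene of IgA, was the most abundant heavy constant gene in 211 of the 231 WT plasma cell-like cells (91.3%, 86.9 to 94.6) and in 5 of 5 KO cells. Of the remaining WT cells, Ighg2b led in 10, Ighm in 4, Ighg2c in 3, and Ighg1 and Ighg3 in 1 each. In the 206 WT B cell-like cells Ighm, the constant gene of IgM, led in 86 and Igha in 27, and 84 had fewer than 10 heavy constant UMIs. In the 85 KO B cell-like cells Ighm led in 46 and Igha in 2, and 36 had fewer than 10. Cells outside both classes also held heavy constant UMIs, 22306 in 2160 WT cells and 1576 in 2424 KO cells. Whether the Igha UMIs of B cell-like cells came from the same cell was not tested. In plasma cell-like cells Igha had a WT level of 145167 CPM and a KO level of 151963 CPM, Ighm at 1628 and 28.0, Ighg2b at 3350 and 112, and Ighg2c at 2121 and 6.99. Ighg1 stood at 468 CPM and Ighg3 at 601 CPM in WT plasma cell-like cells and had 0 UMIs in the KO ones, where the limit of 3 UMIs is 20.96 CPM. Each of these genes led in only 1 of 231 WT cells, and the limit of 3 UMIs does not cover the number of KO cells, which is 5. Ighd also had 0 UMIs in KO, but its WT level of 3.46 CPM lies under that limit. Ighe had 14 UMIs in the KO cells and 0 UMIs in the WT ones.

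Among heavy chains, 1 segment dominated in every WT plasma cell-like cell that could be read. A segment was called dominant where it held over 50% of at least 3 UMIs of its chain in the cell. Of 231 WT cells, 161 had 3 or more Ighv UMIs (median 8 in these cells, highest 109), and 161 of 161 had a dominant segment (100%, 97.7 to 100). In 148 of them (91.9%) every Ighv UMI came from 1 segment. Only 29 of 2043 UMIs, 1.42%, lay outside the leading segment, and the lowest share of a leading segment was 61.5%. In B cell-like cells no cell reached 3 UMIs of a chain, so a dominant segment could not be called in any of the 206 WT and 85 KO cells, and their usage per cell was not detectable at this depth.

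Heavy chain usage was spread over 56 dominant segments with a few leaders. Ighv1-81 was dominant in 18 of 161 WT plasma cell-like cells (11.2%, 6.76 to 17.1), with 3 to 34 UMIs in each of these cells and a median of 7.5. Ighv1-9 was dominant in 11 cells (6.83%, 3.46 to 11.9) and Ighv1-26 in 7 (4.35%, 1.77 to 8.75). Ighv1-53, Ighv1-69 and Ighv5-4 followed with 6 cells each. The intervals of Ighv1-81 and Ighv1-9 overlap, as do those of Ighv1-9 and the segments after it. At the other end, 17 segments were dominant in 1 cell each.

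Measured by the Shannon effective number, the number of equally used segments that would give the same diversity, WT plasma cell-like cells used 40.9 heavy segments. The inverse Simpson number, which weights the leaders more, was 28.8. Together 12 segments covered 50% of the 161 cells, and the 5 most used covered 29.8%. Counted in UMIs rather than cells, usage was more concentrated, at an effective number of 33.4 with 8 segments covering 50% of 2091 UMIs. The order of the leaders also changed with the unit. Ighv1-81 led in both, with 191 UMIs or 9.13% (7.93 to 10.5), but the next by UMIs were Ighv7-3 with 145 UMIs, Ighv1-82 with 137, Ighv5-4 with 126 and Ighv4-1 with 121.

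Some of the segments that ranked higher by UMIs had few cells with many UMIs. The 145 UMIs of Ighv7-3 came from 3 cells, and 1 cell held 92 of the 121 UMIs of Ighv4-1 (76.0%). All 109 UMIs of Ighv5-16 lay in 1 cell, and 100 of the 108 UMIs of Ighv3-1 in 1 of 2 cells. Ighv1-9, in contrast, had 110 UMIs over 14 cells, with 32 in the highest. Over all members, 66 of 112 had more than 50% of their WT plasma cell-like UMIs in 1 cell, and 24 were found in a single such cell. The highest value of any member in 1 cell was 223 UMIs of Igkv12-44, in a WT cell with 34517 UMIs in all, and this cell held 83.2% of that segment's 268 UMIs.

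**Figure D2:**
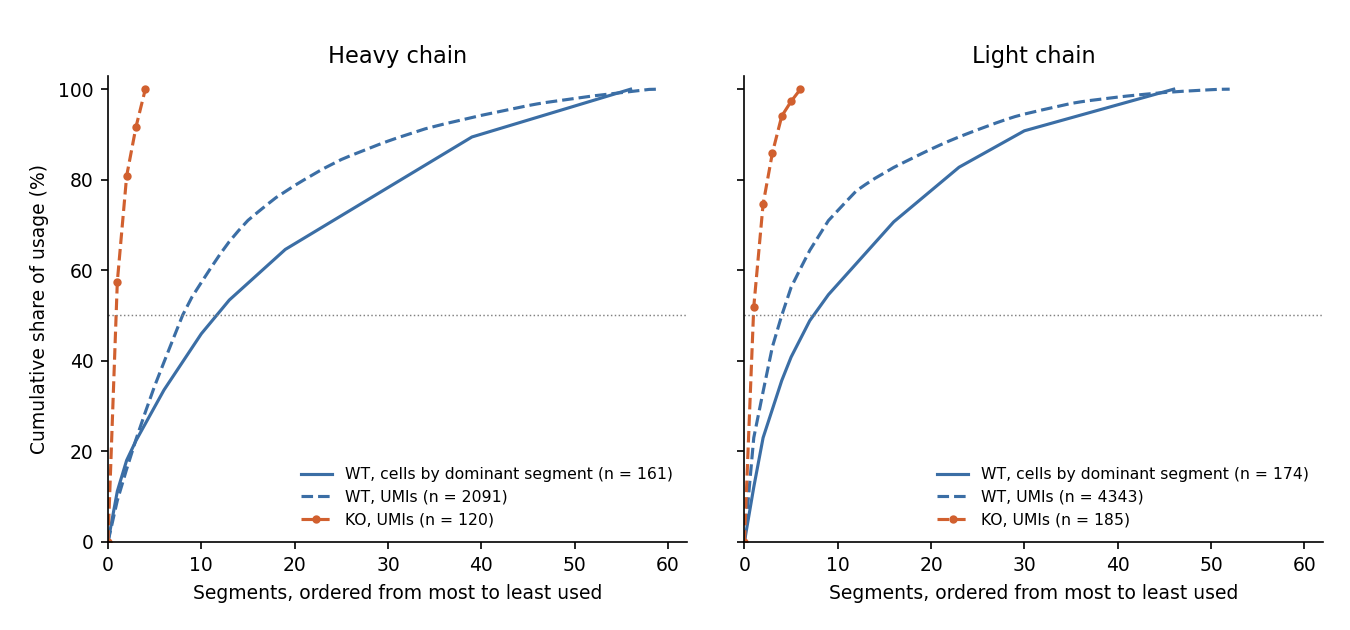
Cumulative share of usage (%) against the number of segments ordered from most to least used, for heavy and light chains, in WT plasma cell-like cells by dominant segment (solid, light segments ranked by constant gene) and by UMIs (dashed) and in KO plasma cell-like cells by UMIs (dashed, with points). The WT lines cross 50% at 12 heavy segments by cells and 8 by UMIs; the KO lines, from 5 cells, end at 4 heavy and 6 light segments.

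Light chains were more mixed within a cell, and most of the UMIs outside the leading segment belonged to Iglv1. With Igkv and Iglv ranked together, 186 WT plasma cell-like cells had 3 or more light V UMIs (median 16), 174 had a dominant segment (93.5%, 89.0 to 96.6), but only 37 (19.9%) drew all of their light V UMIs from 1 segment. A share of 20.6% of 4311 UMIs lay outside the leading segment, against 1.42% for heavy chains. Iglv1 appeared to be the leading light segment, dominant in 25 of 174 cells (14.4%, 9.52 to 20.5) and holding 998 of 4343 UMIs (22.98%, 21.7 to 24.3).

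The light constant genes gave another picture. Igkc held most of the light constant UMIs in 214 of the 231 WT plasma cell-like cells, and the lambda constant genes Iglc1, Iglc2 and Iglc3 in 17 (7.36%). Only 4 of the 236 plasma cell-like cells of both libraries lay between 20% and 80% lambda constant UMIs. Among the 214 kappa cells, 133 had at least 1 Iglv1 UMI (62.1%, 55.3 to 68.7), with a median of 1, an upper quartile of 3 and a highest value of 37. Of the 25 cells with dominant Iglv1, 14 were kappa cells by their constant gene and 11 were lambda cells. The 15 kappa cells with a dominant Iglv segment had a median of 3045 Igkc UMIs and of 12 Iglc1 UMIs.

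Iglv1 in kappa cells moved with the depth of the cell. The 133 kappa cells with Iglv1 had a median of 20618 UMIs in all and 7 Iglc1 UMIs, and the 81 without it had medians of 11099 and 2. Across the 214 cells, which share 1 library, the Spearman correlation of Iglv1 was 0.54 with Igkc, 0.51 with total UMIs and 0.29 with Iglc1. For comparison, that of Igkv with Igkc was 0.77. Outside plasma cell-like cells Iglv1 was nearly absent, with 0 UMIs in 206 WT B cell-like cells and 5 UMIs in 3 of the 2160 WT cells outside both classes, 0.355 CPM (0.115 to 0.828), against 190 CPM (177 to 205) in kappa and 902 CPM (801 to 1013) in lambda plasma cell-like cells. In the KO library 4 of 5 plasma cell-like cells, all of them kappa cells, had Iglv1 UMIs, and no cell outside that class did. Whether these UMIs came from the Iglv1 gene in the same cell was not tested.

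Iglv3 was also spread over many kappa cells, at a lower level, and Iglv2 was found in few. Iglv3 stood at 23.9 CPM (19.2 to 29.4) in kappa and 21.9 CPM (8.79 to 45.0) in lambda plasma cell-like cells, without the difference seen for Iglv1. Iglv3 had 96 UMIs in 57 WT plasma cell-like cells with at most 7 in a cell, 89 of them in 51 kappa cells, and it was dominant in no cell when ranked within the lambda locus. Iglv2 had 96 UMIs in 11 cells, 17 of them in 6 kappa cells. The next counts cover cells in which another segment was dominant, with light segments ranked within the locus of the cell's own constant gene. They can include kappa cells in which Iglv1 held most of the light V UMIs. Among such cells, Iglv1 was found in 119 of 163 (73.0%), Iglv3 in 53 of 174 (30.5%), Igkv3-1 in 10 of 173 (5.78%) and Igkv3-2 in 9 of 174 (5.17%). Igkv3-11 was found in 8 of 174 (4.6%) and Iglv2 in 7 of 171 (4.09%), with 18 UMIs each, and every further segment in at most 3 cells. Over all such cells 12 heavy members had 29 UMIs in all. Igkv3-1 and Igkv3-2 are the Igkv features nearest to the kappa J segments, at 0.0184 and 0.0235 Mb.

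**Figure D3:**
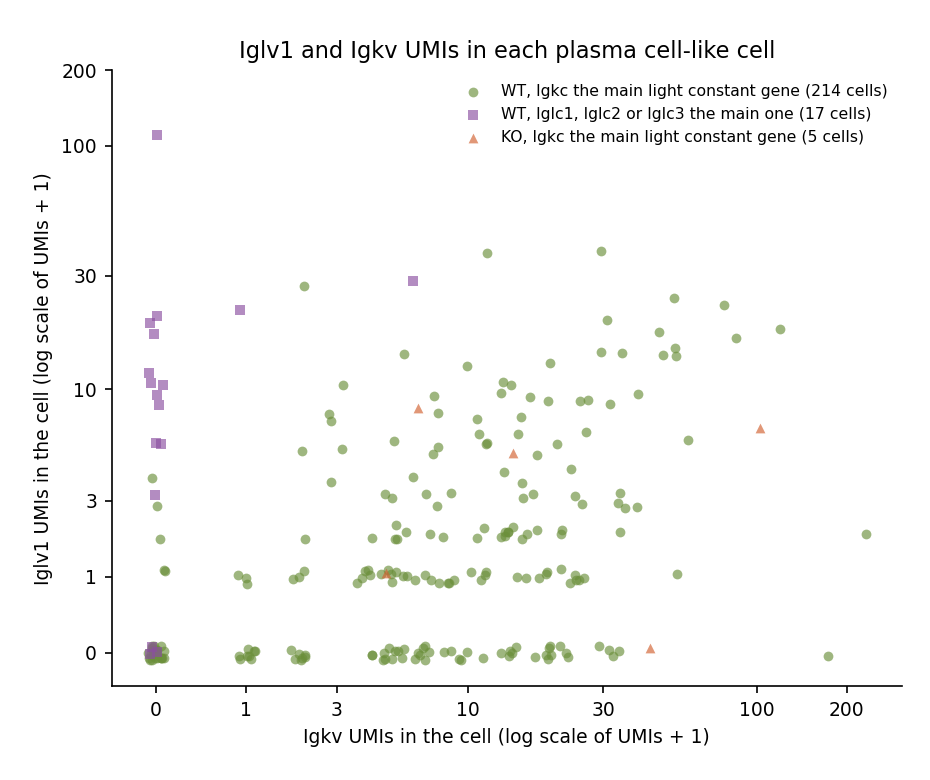
Iglv1 UMIs against Igkv UMIs in each plasma cell-like cell (log scale of UMIs + 1, points spread slightly to be seen), coloured by the main light constant gene and library. All but 2 lambda cells lie on the left edge, with 0 Igkv UMIs, as do some WT kappa cells. Iglv1 is found in 133 of 214 WT kappa cells and 4 of 5 KO cells, in most of them beside Igkv.

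The 17 lambda cells could be divided by their leading lambda constant gene. In the 12 cells led by Iglc1, Iglv1 had 0 to 116 UMIs with a median of 14.5, and Iglv2 was found in 2 of them, at 40 and 23 UMIs. In the 4 cells led by Iglc2, Iglv1 had 0, 3, 6 and 6 UMIs and Iglv2 had 0, 0, 6 and 9. The 1 cell led by Iglc3 had 8 Iglv1, 1 Iglv2 and 2 Iglv3 UMIs. The highest Iglv1 and Iglv2 values were both in cells led by Iglc1, the groups overlapped, and 3 of the 17 cells had no dominant segment. Igkv UMIs were found in 2 of the 17 cells, at 6 and 1 UMIs.

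When the light segment was ranked only within the locus of the cell's own constant gene, a choice made after seeing the counts, Igkv1-110 and Igkv1-117 led. Igkv1-110 was dominant in 21 of 174 WT cells (12.1%, 7.63 to 17.9) with 3 to 80 UMIs, and Igkv1-117 in 19 (10.9%, 6.70 to 16.5) with 3 to 51. Igkv10-96 and Iglv1 followed with 11 cells each (6.32%, 3.20 to 11.0), then Igkv8-21 with 9 (5.17%, 2.39 to 9.59). The intervals of these segments overlap, so their order is not fixed by the counts. Ranked within the Igkv locus, kappa cells were less mixed than with both loci together, and more mixed than for the heavy chain. Of 162 WT kappa cells with 3 or more Igkv UMIs, 160 had a dominant Igkv segment, and 116 (71.6%) had Igkv UMIs from 1 segment only, against 91.9% for the heavy chain.

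**Figure D4:**
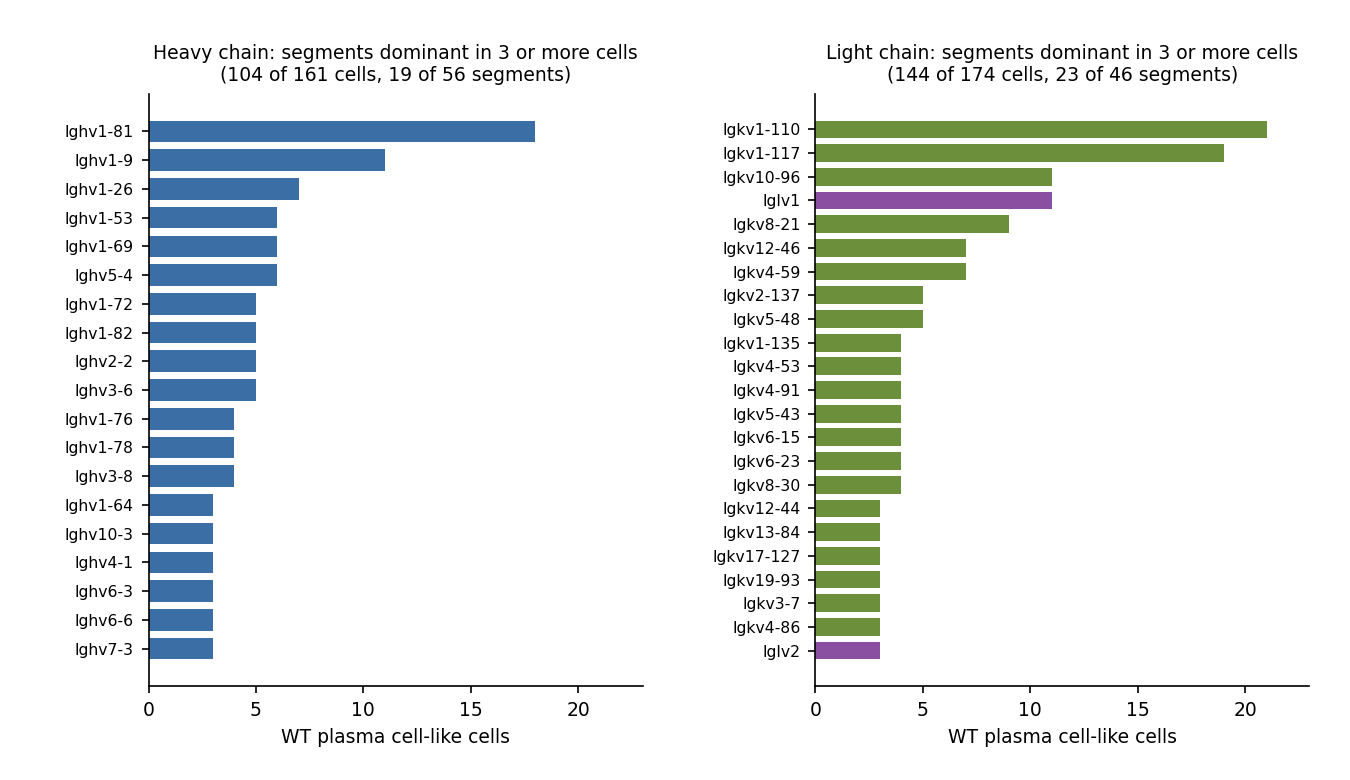
Number of WT plasma cell-like cells in which each heavy and light segment was dominant, for segments dominant in 3 or more cells, with the light segment ranked within the locus of the cell's constant gene. Ighv1-81 leads the heavy chain with 18 of 161 cells, and Igkv1-110 with 21 and Igkv1-117 with 19 of 174 cells lead the light chain.

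By this ranking WT plasma cell-like cells used 46 light segments with an effective number of 29.7, 8 segments covered 50% of 174 cells, and the top 5 covered 40.8%. With both loci ranked together the effective number was 25.5 over cells and 20.1 over UMIs, and 4 segments held 50% of the UMIs. The leaders by light UMIs were Iglv1 with 998, Igkv1-117 with 443, Igkv1-110 with 431, Igkv5-43 with 301 and Igkv12-44 with 268. Light usage was thus concentrated on fewer segments than heavy usage in each of these counts. Over both chains, 102 of the 112 members were dominant in at least 1 WT plasma cell-like cell, 56 of them heavy and 46 light. The 10 that were not were Ighv1-7, Ighv1-55, Ighv1-77, Ighv7-1, Igkv3-2, Igkv3-11, Igkv8-24, Igkv9-120, Igkv12-38 and Iglv3. Igkv3-11 is the only member annotated as a pseudogene.

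Segments are grouped into families by sequence similarity. The Ighv1 family was dominant in 94 of 161 cells (58.4%, 50.4 to 66.1) and makes up 50.3% of the Ighv features. The Ighv8 family had 2.48% of cells (0.681 to 6.24) and 8.65% of the features. Among light segments, the Igkv1 family was dominant in 45 of 174 cells (25.9%, 19.5 to 33.0) and makes up 7.98% of the Igkv and Iglv features. Igkv10 stood above its share of features as well, with 6.90% of cells (3.61 to 11.7) against 1.84%, and Igkv13 below it, with 1.72% (0.357 to 4.96) against 11.0%. The feature shares count all features of a family, also those under 5 UMIs. Members numbered 29 of 93 Ighv1, 2 of 16 Ighv8, 4 of 13 Igkv1, 2 of 3 Igkv10 and 1 of 18 Igkv13 features.

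Along the chromosome the segments lie in a row upstream of the J segments. The features of each locus were divided by distance into 3 parts of nearly equal number. In the Ighv locus the part nearest to the J segments held 29.8% of 161 cells (22.9 to 37.5), the middle part 29.2% (22.3 to 36.9) and the farthest part 41.0% (33.3 to 49.0). In the Igkv locus these shares were 36.3% of 160 cells (28.8 to 44.2), 17.5% (11.95 to 24.3) and 46.3% (38.3 to 54.3). Dominant Ighv segments thus came from all 3 parts of the locus, and the middle of the Igkv locus had fewer cells and also fewer members, with 10 against 23 in the nearest and 16 in the farthest part.

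**Figure D5:**
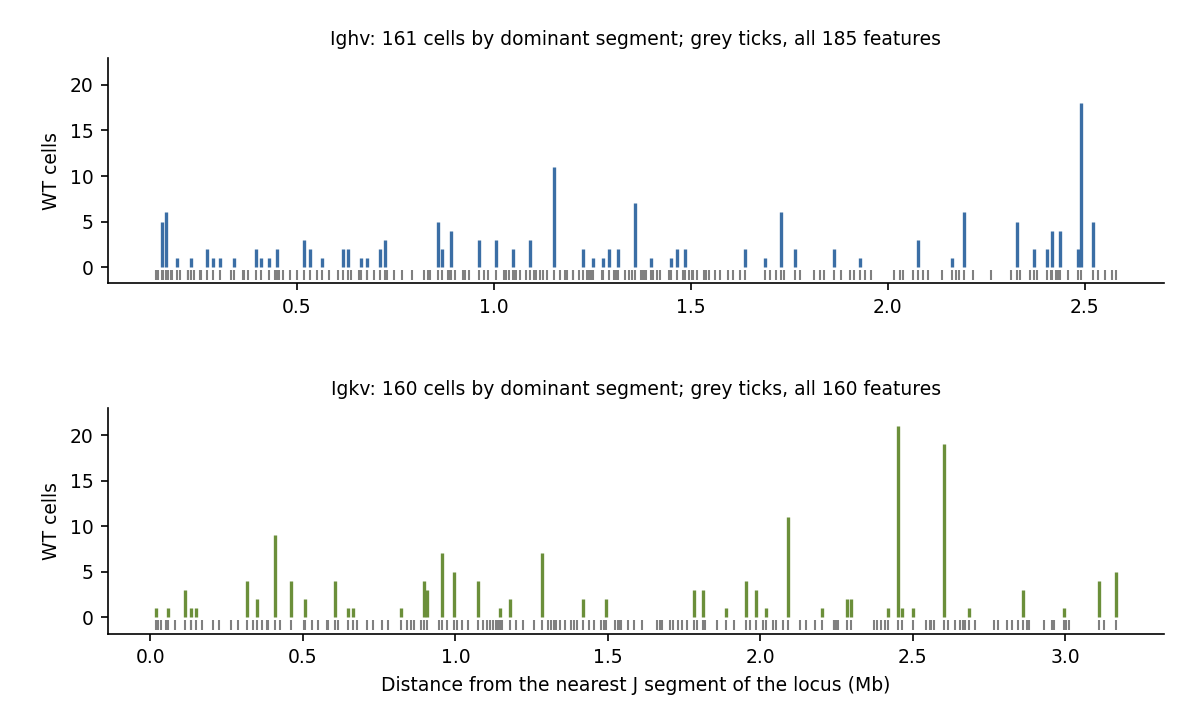
Number of WT plasma cell-like cells in which a segment was dominant against the distance of the segment from the nearest J segment (Mb), for the Ighv and the Igkv locus. Dominant segments lie along both loci, and the middle part of the Igkv locus holds 17.5% of cells.

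Heavy and light segments could be paired in 143 WT plasma cell-like cells. They made 113 different pairs with an effective number of 99.3, of which 94 were found in 1 cell and 19 in 2 or more, together 49 cells (34.3%, 26.5 to 42.7). Ighv1-81 with Igkv1-117 was the most frequent pair, with 7 cells, followed by Ighv1-81 with Igkv1-110, with 6 cells. Of the 15 paired cells with Ighv1-81, the remaining ones had Igkv6-15 and Igkv8-21, 1 cell each. Over all 143 cells Igkv1-117 was found in 14 and Igkv1-110 in 17. The 2 light partners share the sequence described above, and how far reads were divided between them was not tested. Ighv1-9 was paired with Igkv8-21 in 4 of 10 cells, with Igkv17-127 and Iglv1 in 2 each, and with Igkv4-57 and Igkv7-33 in 1 each. Whether cells with the same pair belong to 1 clone cannot be read from segment counts, which hold no junction sequence.

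Ighv1-81 was found with several antibody classes. The 147 Igha-led cells with a dominant heavy segment used 55 segments, led by Ighv1-81 with 14 cells and Ighv1-9 with 10. Of the other Ighv1-81 cells, 2 were led by Ighg2c, 1 by Ighg2b and 1 by Ighm. The 7 Ighg2b-led cells with a dominant heavy segment used 6 segments.

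In the KO library each of the 5 plasma cell-like cells used its own segments. Cell 1, in the cluster led by Hist1h2ap, had no Ighv UMI, 6 Igkv4-57-1 and 8 Iglv1 UMIs among 33282 UMIs. Cell 2 had 28 UMIs of Ighv7-1, 15 of Igkv4-72 and 5 of Iglv1. Cell 3 had the most, with 69 UMIs of Ighv3-6, 96 of Igkv17-127 and 7 of Iglv1. Every one of these cells had a single Igkv segment. Cell 4 had 10 UMIs of Ighv1-36, 5 of Igkv8-24 and 1 of Iglv1. Cell 5 had 13 UMIs of Ighv1-7 and 42 of Igkv19-93, and no Iglv1. In all 5 Igha and Igkc were the leading constant genes. Cells 1, 3, 4 and 5 were among the top 3% of Scrublet scores, and cell 2, with 48 member UMIs, was not. Whether these barcodes hold more than 1 cell was not tested.

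Most of these segments were also used in WT. Ighv3-6 was dominant in 5 WT cells, Igkv17-127 and Igkv19-93 in 3 each, Igkv4-57-1 and Igkv4-72 in 2 each and Ighv1-36 in 1. Ighv1-7 and Igkv8-24 had 1 UMI each in WT plasma cell-like cells, and Ighv7-1 had 0. No heavy and light pair was found in both libraries. The number of KO cells limits how many segments could be seen. The 4 KO cells with a dominant heavy segment had 4 segments, where 4 WT cells drawn at random hold 3.83 on average, and the 5 KO cells had 5 light segments, where 5 WT cells hold 4.59.

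Member by member in plasma cell-like cells, 101 of 111 members with 5 or more UMIs were lower in KO by 2-fold or more, and all 101 had 0 UMIs in KO. Among all features with as many UMIs in these cells 41.1% were lower by as much, and 33.4% had 0 UMIs in KO. In the higher direction there were 9 of 111 members, against 9.7% of all features. The median log2 ratio was -2.45 over the members and -0.49 over all features. With 5 KO cells and at most 1 heavy and 1 kappa segment per cell, the count of members at 0 and the number of KO cells cannot be told apart.

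The shares of single segments differ in the same way. Igkv17-127 held 51.9% of the light V UMIs in KO and had a log2 KO to WT ratio of share of 5.28 (4.79 to 5.78). Igkv19-93 had one of 4.90 (4.21 to 5.60) and Ighv3-6 one of 3.84 (3.36 to 4.32), and each KO value came from 1 cell. The KO plasma cell-like cells with these segments were among the top 3% of Scrublet scores. Without that top 3%, only cell 2 was left, with 48 member UMIs, and these ratios were lost. At the other end Igkv1-117, Igkv1-110 and Igkv5-43 had 0 UMIs in KO plasma cell-like cells. Against the limit of 3 UMIs over the KO class, which is 1.62% of the light V UMIs, their WT shares were 6.29, 6.12 and 4.27 times as high, and the exact intervals of their log2 ratios reach up to -2.35, -2.31 and -1.79. The KO UMIs come from 5 cells, which these limits do not cover.

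Genes used mainly in early lymphocyte development were at or near 0 UMIs. Rag1 and Rag2, which cut the segments, Dntt, which adds bases at the joints, and Igll1 and Vpreb2, parts of the surrogate light chain, had 0 UMIs in B cell-like and plasma cell-like cells of both libraries, and Vpreb1 had 1. The end-joining genes Dclre1c, Prkdc, Lig4, Xrcc4, Xrcc5 and Xrcc6 ranged from 6.94 to 19.7 CPM in WT B cell-like cells and from 1.73 to 15.6 CPM in WT plasma cell-like cells. Nhej1 had 0 UMIs in B cell-like and 9 UMIs in WT plasma cell-like cells. In the 5 KO plasma cell-like cells Prkdc, Xrcc4 and Xrcc5 had 0 UMIs and Dclre1c, Lig4, Xrcc6 and Nhej1 had 1 each. In KO B cell-like cells Dclre1c stood at 40.6 CPM and Prkdc at 15.2, Xrcc4, Xrcc5 and Xrcc6 at 5.08 to 7.62, and Lig4 had 0 UMIs. The repair genes Ung, Msh6 and Polh stood at 19.7, 38.2 and 4.63 CPM in WT B cell-like cells and at 7.91, 11.1 and 1.24 CPM in WT plasma cell-like cells. Jchain, which links IgA into dimers, was found in 231 of 231 WT and 5 of 5 KO plasma cell-like cells, at 40545 and 48176 CPM. Mzb1 and Xbp1, which serve antibody assembly and the secretory state, were found in 225 and 227 WT cells at 1775 and 2110 CPM and in 5 of 5 KO cells each at 1258 and 1412 CPM. Prdm1, a regulator of the plasma cell state, stood at 108 CPM in WT and 34.9 CPM (11.3 to 81.5) in KO plasma cell-like cells.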

How the data were processed

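The 2 libraries were deposited as matrices of raw UMI counts per gene and barcode, which the authors made with Cell Ranger 3.0.2 per the file headers on build mm10, and their processing notes name Seurat 4. The sort staining and the 3′ v3 chemistry are given in the labels. Barcodes with 200 to 6000 genes and at most 15% mitochondrial UMIs were kept, as in the study's methods. Counts were scaled to 10000 per cell and logged, and 2000 variable genes without any immunoglobulin feature gave 30 principal components, 15 neighbours and Leiden clusters at resolution 1 (scanpy 1.11.5, leidenalg 0.10.2). A class needed at least 3 raised markers. No doublet caller was used, and leaving out the top 3% of Scrublet scores was an alternative. CPM values have exact Poisson intervals, shares have exact Clopper-Pearson intervals, and ratios have exact conditional binomial intervals. These intervals cover counting error only, and PCR copies were collapsed by UMI. With 1 library per genotype no p-value was computed.

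All 112 members were matched by gene ID to GENCODE M21. Named segments were the 5 with the most UMIs per chain and library in each class, the 3 dominant in most cells, the 3 highest and 3 lowest KO to WT ratios of share among members with 50 or more UMIs, and the member with the most UMIs in a cell. Others were named after their values were seen. The members and gene lists were chosen with earlier results of these data known. The script was tested on simulated data. Multimapping between similar segments was handled by the authors' counting and was not examined. Some genes of the fixed lists are not reported here.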

Additional observations from a re-analysis of the deposited data

Results flagged for a closer look

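V segment UMIs were found in data outside the B cell-like and plasma cell-like classes. The 244 WT T cell-like cells held 77 member UMIs and the 110 KO cells 1. Of these, 43 lay in 1 WT barcode with 24471 UMIs, namely 28 of Igkv8-30, 11 of Ighv1-26, 3 of Iglv1 and 1 of Iglv3, beside 1108 Jchain and 5 Cd3e UMIs. Another WT barcode, with 27998 UMIs, held 30, namely 16 of Ighv3-6, 13 of Igkv19-93 and 1 of Iglv3, beside 989 Jchain and 6 Cd3e UMIs. The first was among the top 3% of Scrublet scores of its library and the other was not. Whether these barcodes hold more than 1 cell was not tested.

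WT barcodes outside the cell filter held 41 member UMIs and KO ones 1. Of the WT UMIs, 23 lay in 6 of the 17 barcodes nearest to the plasma cell-like profile and 12 in 12 of the 426 nearest to the epithelial-like profile. The V segments under the minimum of 5 UMIs held 43 UMIs over both libraries, 18 of them Ighv and 25 Igkv.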

How the results depend on the processing

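Of 280 recomputed values over 24 quantities, 224 moved by less than their counting interval (or 1.5 times, for a count), 48 moved further and 8 turned the direction. The WT plasma cell-like level of 1591 CPM was 1488 with cells taken by marker UMIs, 1644 without the top 3% of Scrublet scores, 1261 with members of 50 or more UMIs, 1544 without the cell with the most V UMIs and 1741 without the cluster led by Hist1h2ap. The KO level of 2131 CPM was 558, 1850, 1698, 1279 and 2650 in the same order. The log2 KO to WT ratio of 0.42 turned to -1.42 by marker UMIs and -0.27 without the top cell, and was 0.17 without the top Scrublet scores and 0.61 without the Hist1h2ap cluster. By locus, marker UMIs turned Ighv to -1.14 and Igkv to -1.28, leaving out the top cell turned them to -0.078 and -0.16, and the Scrublet setting turned Igkv to -0.46. In B cell-like cells marker UMIs turned the ratio of 0.76 to -0.73, and the WT level of 25.5 CPM was 70 there and 11.6 with members of 50 or more UMIs, where the KO level of 43.2 CPM was 17.8. Marker UMIs gave 40 KO plasma cell-like cells, but the same 305 member UMIs, and the Scrublet setting left 1 of 5 KO cells. A dominant share of over 80% held in 96.3% of eligible heavy cells. Dominant Iglv1 was found in 25 WT cells, in 44 with members of 50 or more UMIs, in 13 with a share of over 80% and in 11 by constant gene. The heavy effective number of 40.9 was 11 with members of 50 or more UMIs and 25 with 10 or more UMIs per cell, and the light one of 25.5 was 10.4 with members of 50 or more UMIs and 16.6 as inverse Simpson number. The top heavy share of 11.2% was 23.4% with members of 50 or more UMIs, and the top light share of 14.4% was 29.7% there and 23% in UMIs. By share of chain, 102 members were lower in KO, and 28 with members of 50 or more UMIs, where fewer members were counted. Ranking by constant gene and leaving out the Hist1h2ap cluster were chosen after seeing the data. The cause of the other shifts was not tested. No paired analysis was possible because each genotype has 1 library.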

Other observations

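The plasma cell-like cluster led by Hist1h2ap had Mki67 in 45 of 46 and Top2a in 45 WT cells, and the other plasma cell-like cluster had Mki67 in 60 and Top2a in 22 of 185. The first had a lower V segment level than the other, 1235 against 1741 CPM, at a median depth of 26165.5 against 15698 UMIs. The 33 cells of the first with a dominant heavy segment used 25 segments, led by Ighv1-69 with 3 cells, and the 128 cells of the other cluster used 54, led by Ighv1-81 with 15. Igkv1-117 led the light chain of the first, with 7 of 39 cells. Across the 231 WT plasma cell-like cells, which share 1 library and differ in depth, the Spearman correlation of Ighv UMIs with heavy constant UMIs was 0.68 and that with all UMIs was 0.50.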
